A study of Mus musculus with 12 samples.

Results

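The genes described are *Txnip*, which encodes thioredoxin-interacting protein, and 9 genes around it, in the hearts of diabetic mice. They were chosen by symbol, as every non-control probe that the array files name *Txnip*, *Arrdc2*, *Arrdc3*, *Arrdc4*, *Txn1*, *Txn2*, *Txnrd1*, *Txnrd2*, *Mlxip* or *Mlxipl*. These are 10 genes of the 27513 with a symbol on the array, with 24 probes, of which 22 met the filter for testing, a positive and significant signal on 50% or more of the arrays of each group. Messenger RNA of the heart muscle was profiled on 12 arrays, each from 1 male C57BL6/J mouse aged 5 months. The mice fell into 4 groups of 3, namely controls (C), diabetic mice (D), and mice of either kind treated with pargyline (C + P and D + P). Type 1 diabetes had been induced with 5 daily doses of 50 mg/kg streptozotocin, which kills the beta-cells of the pancreas, and a mouse counted as diabetic at a blood glucose of 17 mM or more. Pargyline inhibits monoamine oxidase and was given for 12 weeks at a daily dose of 50 mg/kg, and mice without it received vehicle. The glucose of the single mice was not given, and the labels do not say whether controls received the citrate buffer of streptozotocin.

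Thioredoxin is a small protein that passes electrons to oxidised proteins, and thioredoxin reductase recharges it with electrons from NADPH. TXNIP binds reduced thioredoxin and, as a member of the alpha-arrestin family, also binds glucose transporters and promotes their removal from the cell surface. MondoA (*Mlxip*) and ChREBP (*Mlxipl*) are transcription factors that respond to glucose phosphates, pair with MLX and bind carbohydrate response elements, of which those of the *Txnip* and *Arrdc4* promoters are well-known examples.

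Below are the 250 bases upstream of the annotated start of *Txnip* and of its close relative *Arrdc4*. They are from RefSeq (assembly GRCm38.p6) and run 5′ to 3′ on the strand of the gene. Both were picked with the array results known, and whether these bases bear on those results was not tested. Capitals in *Txnip* (chr3:96557707-96557956, plus strand) mark a forkhead motif and then a paired CACGNG element with a spacer of 5 bases. Capitals in *Arrdc4* (chr7:68749239-68749488, minus strand) mark CACGTG and then the reverse complement of TGACNNNGC, a core of the antioxidant response element.
Txnip: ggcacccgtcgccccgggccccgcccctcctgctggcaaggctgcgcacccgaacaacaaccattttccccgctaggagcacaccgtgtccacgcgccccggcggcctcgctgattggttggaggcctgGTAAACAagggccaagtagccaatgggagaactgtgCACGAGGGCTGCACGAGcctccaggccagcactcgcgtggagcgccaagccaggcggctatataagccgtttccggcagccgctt
Arrdc4: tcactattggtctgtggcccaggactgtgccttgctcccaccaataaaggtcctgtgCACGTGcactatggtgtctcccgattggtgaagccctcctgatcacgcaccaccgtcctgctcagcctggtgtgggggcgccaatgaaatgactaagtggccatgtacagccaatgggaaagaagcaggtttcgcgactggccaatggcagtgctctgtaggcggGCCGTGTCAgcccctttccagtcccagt

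The paired element, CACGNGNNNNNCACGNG, lay 85 to 69 bases before the start of *Txnip*, as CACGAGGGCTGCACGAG. On both strands of 32851 promoter windows, each with 250 bases before and 50 after a start, it was found in 16 windows (0.0487%), and *Txnip* was the only one of the 10 genes among them. The 10 genes had 15 windows, as *Arrdc3*, *Txnrd1* and *Mlxipl* have several starts. The pattern was chosen because such elements of *Txnip* are known, so the match describes its promoter and is no result of the arrays. CACGTG, which is its own reverse complement, was found in 7.15% of windows, in that of *Arrdc4* (193 to 188 bases before the start) and in 1 of the 2 of *Mlxipl* (98 to 93). GTAAACA, the forkhead motif, was found in 3.65% of windows and in that of *Txnip* (121 to 115 bases before the start). TGACNNNGC was found in 12.4% of windows, in that of *Arrdc4* (28 to 20) and in 1 of the 3 of *Txnrd1* (92 to 84). A match is a description and not a binding site, and the absence of a motif says only that its letters are not in the window.

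All values of a gene below are log2 signals of 1 probe after quantile normalisation, so a difference of 1 is a doubling, and levels are compared between hearts but not between probes. Where a gene had several probes, the one with the highest mean signal is described first. All arrays without pargyline shared 1 slide and all arrays with it another, so slide and pargyline cannot be told apart, and diabetic mice were all in row 2 of both slides, so diabetes likewise cannot be told apart from the row. Between 23556 (D replicate 1) and 29231 (C replicate 2) of 59305 spots were well above background, and 0 were saturated. The median coefficient of variation of repeated spots was 23.4% on D replicate 1, 10.5% to 16.6% on replicate 1 of C and of C + P and on replicates 1 and 3 of D + P, and 3.92% to 5.81% on the other 7 arrays. All 6 cardiomyocyte markers were well above background on all arrays, and their summed linear signal was 628000 to 664000 in C, 582000 to 706000 in D, 601000 to 730000 in C + P and 596000 to 698000 in D + P. 1 of the 6, the calcium release channel *Ryr2*, had a lower mean in diabetes while the sum did not part the groups, at 13.60 ± 0.19 in C, 12.48 ± 0.59 in D, 13.50 ± 0.21 in C + P and 12.65 ± 0.41 in D + P (SD, n = 3), an averaged difference of -0.99 (SE 0.21, limma adjusted p = 0.141). Of the other cell types, the summed signal of 5 immune markers was lower in D (5590 to 6940) than in C (7370 to 8790), with 6970 to 7520 in C + P and 5360 to 7080 in D + P. Of the 3 smooth muscle markers, whose sums overlapped, *Myh11* differed by -0.83 in D against C (SE 0.32, limma adjusted p = 0.422) and by 1.59 in D + P against D (SE 0.32, limma adjusted p = 0.157). The 5 fibroblast markers summed to 43500 to 45500 in C + P and 47300 to 55300 in D + P, and overlapped in C and D. The 5 endothelial markers summed to 28800 to 32100 in C, 20200 to 29400 in D, 23400 to 34500 in C + P and 28000 to 37800 in D + P. In D + P against D they differed by 0.08 (*Pecam1*) to 0.75 (*Kdr*, SE 0.18, limma adjusted p = 0.176), with 0.59 for *Tie1* (SE 0.25, limma adjusted p = 0.354). Of the skeletal muscle, atrial and adipocyte markers, *Myh1*, *Myh2*, *Actn3*, *Sln*, *Adipoq*, *Plin1* and *Cidec* were well above background on no array, *Myh4* and *Myl7* on 4, *Tnnt3* on 11, and *Myl4* and *Lep* on all 12. The 5 skeletal muscle markers summed to 107 to 118 in C, 128 to 163 in D, 127 to 143 in C + P and 110 to 147 in D + P. The sums of D thus lay above those of C, but partly on signal not well above background. Means in C and D were 3.50 and 4.93 for *Myh2* and 5.74 and 6.03 for *Tnnt3*, while *Myh4* went the other way (5.00 and 4.74). The atrial and adipocyte sums overlapped between diabetic and non-diabetic hearts in each arm. The part of these cell types in the results below was not tested, and in whole tissue fewer cells of a type and less RNA per cell cannot be told apart.

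*Txnip* was higher in every diabetic heart than in every non-diabetic heart. In C its brighter probe (mm9, chromosome 3, 96365340 to 96365399) read 13.41, 13.42 and 12.87, and in D 15.01, 14.50 and 14.07. Under pargyline it read 13.17, 13.43 and 12.65 in C + P and 14.27, 14.58 and 14.57 in D + P. The lowest diabetic array (D replicate 3, 14.07) thus lay above the highest non-diabetic array (C + P replicate 2, 13.43). The group means were 14.53 ± 0.47 in D, 14.48 ± 0.17 in D + P, 13.23 ± 0.31 in C and 13.08 ± 0.40 in C + P (SD, n = 3). The neighbours D and D + P, and C and C + P, differed by less than the spread within groups.

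Diabetes averaged over pargyline is the mean of D against C and D + P against C + P. In this contrast the brighter *Txnip* probe was 1.35 log2, or 2.54-fold, higher in diabetic hearts (SE 0.20, 95% interval 0.91 to 1.78, limma adjusted p = 0.0423). It was the only one of the 22 tested probes that passed the threshold of 0.05 after adjustment over all 30859 tested probes, of which 0.107% (33 probes) passed. That count was 3 to 116 without each array in turn, 3 without C replicate 3 or D + P replicate 2 and 116 without D + P replicate 1. Its rise ranked 28 in size among the tested probes that rose. The difference was 1.30 (SE 0.28, 2.46-fold, limma adjusted p = 0.237) in D against C and 1.39 (SE 0.28, 2.62-fold, limma adjusted p = 0.186) in D + P against C + P, and neither passed alone. The averaged rise was 1.22 to 1.46 under 24 alternative settings, with an adjusted p of 0.0119 to 0.141. It kept the threshold without D replicate 3 or D + P replicate 1, and lost it without any other single array (adjusted p 0.0699 without D replicate 1, the noisiest array, to 0.141 without C replicate 2). It also lost it with the column of the array on its slide as a block (1.27, adjusted p 0.0939), with the replicate block (1.35, 0.0681) and without a filter on dim probes (1.35, 0.0592).

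The other *Txnip* probe (mm9, chromosome 3, 96364206 to 96364265) gave the same order of groups between diabetic and non-diabetic hearts. It read 9.29, 9.30 and 8.44 in C, 8.85, 9.29 and 8.64 in C + P, 10.05, 10.01 and 9.85 in D, and 9.80, 10.44 and 10.27 in D + P. Again no diabetic array overlapped a non-diabetic one, and its averaged difference was 1.10 (SE 0.19, limma adjusted p = 0.0733), short of the threshold. D above C and D + P above C + P on every array held for both *Txnip* probes and no other of the 22, against 1.21% of all tested probes. The opposite order on every array held for 1 probe, of *Mlxipl*, against 1.29% of all. The share of all tested probes whose arrays part in a single comparison of groups was not counted. Such orders, given for several genes below, describe the probe and are no result about the genes.

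**Figure D1:**
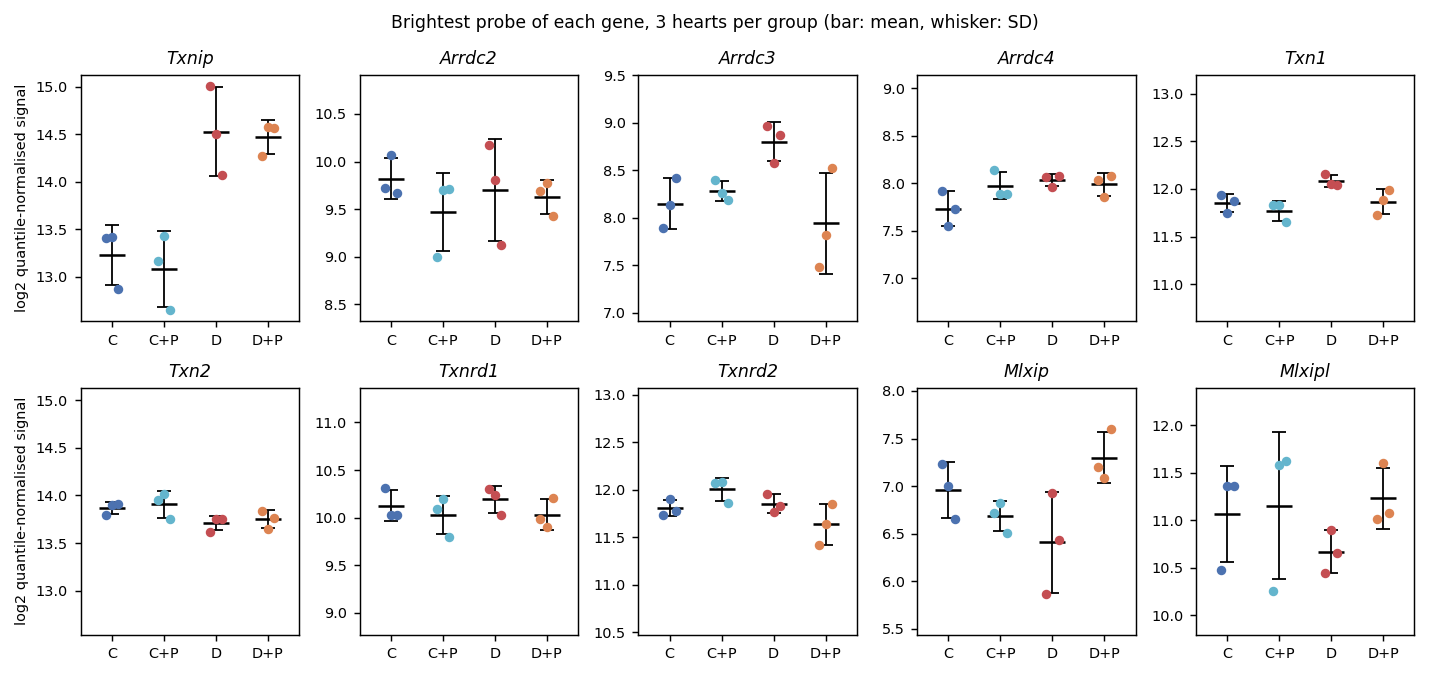
Log2 quantile-normalised signal of the brightest probe of each of the 10 genes, with 1 point per heart, the mean as a bar and the SD as a whisker for C, C + P, D and D + P (n = 3 each); all panels span the same number of log2 units but start at different levels. *Txnip* is the only gene whose 6 diabetic hearts, from 14.07 upwards, all lie above its 6 non-diabetic hearts, up to 13.43.

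Pargyline left *Txnip* within the spread of the groups. C + P against C gave -0.15 (SE 0.28, 95% interval -0.76 to 0.47) and D + P against D gave -0.05 (SE 0.28, interval -0.67 to 0.56). The interaction, the effect of diabetes under pargyline minus that without it, was 0.09 (SE 0.39, interval -0.78 to 0.96), so a difference between both effects of up to about that size cannot be told from none with 3 hearts per group. By limma, 0 of the 22 probes passed in each of the 5 contrasts other than the averaged one. Of all tested probes, 0.00648% passed in the interaction. The share was 0.0454% for D + P against C + P, 0% for D + P against D, 0.0324% for C + P against C and 0.00648% for D against C.

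At an unadjusted p under 0.05, 4 of the 22 probes stood out in D against C (10.8% of all tested probes did) and 5 in D + P against C + P (7.46% of all). The interaction gave 3 (7.03% of all), the averaged contrast 3 (11.4%), D + P against D 4 (13.3%) and C + P against C 0 (4.43%). In the averaged contrast these were both *Txnip* probes and 1 of *Mlxipl*, and the median change over the brightest probes of the 10 genes was 0.03, beside -0.01 over all tested probes.

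Set against the change of each other gene within the same arrays, the rise of *Txnip* was larger by 1.18 (*Txn1*) to 1.51 (*Mlxipl*) log2. *Txnip* was taken as the reference with its rise already known, so these differences are a description and no p is given.

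**Figure D2:**
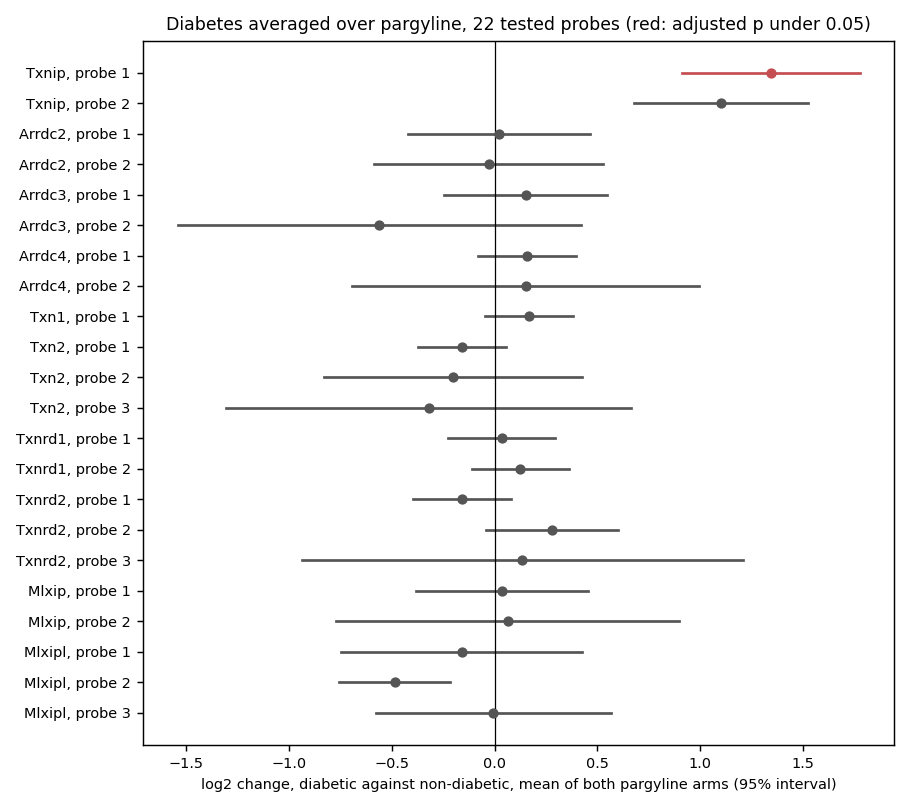
Log2 change with diabetes averaged over pargyline for the 22 tested probes, with the estimate as a point and its 95% interval as a line; probes of a gene are numbered from the brightest. The interval of the brighter *Txnip* probe runs from 0.91 to 1.78 and its point alone is red, for an adjusted p of 0.0423, while the intervals of all others except the dimmer *Txnip* probe and the second *Mlxipl* probe cross 0.

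The other alpha-arrestins did not pass in any contrast. *Arrdc4*, which like TXNIP acts on glucose uptake, read 7.92, 7.55 and 7.73 in C, 8.14, 7.89 and 7.89 in C + P, 8.06, 7.96 and 8.08 in D, and 8.03, 7.85 and 8.08 in D + P (mm9, chromosome 7, 75882043 to 75882102). Its D arrays lay above its C arrays, by 0.30 on average (SE 0.15, adjusted p = 0.498 by limma), whereas D + P and C + P overlapped (0.01, SE 0.15). The averaged difference was 0.16 with a 95% interval of -0.08 to 0.39, far below the rise of *Txnip*. A dimmer *Arrdc4* probe (mm9, chromosome 7, 75886496 to 75886555) was well above background on 10 of the 12 arrays and differed by 0.15 on average (SE 0.38), with overlapping groups in each arm, and it correlated with the brighter one at r = -0.32 over the 12 arrays. *Arrdc2*, an adaptor of the same family, differed by 0.02 on average (SE 0.20), with group means of 9.82 ± 0.22 in C, 9.70 ± 0.54 in D, 9.47 ± 0.40 in C + P and 9.63 ± 0.18 in D + P (SD, n = 3), and all groups overlapped. Its second probe, which overlaps the first in position (mm9, chromosome 8, 73359054 to 73359113), differed by -0.03 on average (SE 0.25), and by -0.36 in D against C (SE 0.36).

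*Arrdc3*, which is known to bind beta-adrenergic receptors and to limit their signalling, was highest in D. Its brighter probe (mm9, chromosome 13, 81035204 to 81035263) read 7.89, 8.13 and 8.42 in C, 8.40, 8.26 and 8.19 in C + P, 8.96, 8.57 and 8.87 in D, and 7.48, 7.82 and 8.52 in D + P. The 3 D arrays lay above all C and all D + P arrays, while D + P and C + P overlapped. The difference was 0.65 in D against C (SE 0.25, limma adjusted p = 0.422) and -0.86 in D + P against D (SE 0.25, adjusted p = 0.223). The interaction was -0.996 (SE 0.36, limma adjusted p = 0.677), so no contrast passed. A dimmer *Arrdc3* probe in another part of the gene (mm9, chromosome 13, 81028816 to 81028875) was well above background on all 3 C arrays and on no D array, with a level at least 1.11-fold below that of C (measured means 5.54 and 4.46, limma adjusted p = 0.537). It read 3.29, 4.91 and 5.18 in D, the lowest on the noisiest array. The 2 probes correlated at r = -0.49 over the 12 arrays, a description over arrays that share their groups.

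Cytosolic thioredoxin, *Txn1*, did not pass in any contrast, and its 3 D arrays lay above the other 9. It read 11.94, 11.75 and 11.87 in C, 11.83, 11.83 and 11.65 in C + P, 12.16, 12.05 and 12.04 in D, and 11.73, 11.88 and 11.99 in D + P (mm9, chromosome 4, 57956677 to 57956736). The D arrays lay above the C arrays by 0.23 (SE 0.14, limma adjusted p = 0.541), D + P against D gave -0.22 (SE 0.14, limma adjusted p = 0.502), and the averaged difference was 0.16 (SE 0.10, 95% interval -0.05 to 0.38). The mitochondrial thioredoxin, *Txn2*, read 13.79, 13.90 and 13.91 in C, 13.95, 14.02 and 13.75 in C + P, 13.62, 13.75 and 13.75 in D, and 13.84, 13.65 and 13.76 in D + P (mm9, chromosome 15, 77745481 to 77745540). Its D arrays lay below its C arrays, and the averaged difference was -0.16 (SE 0.10, interval -0.37 to 0.06, limma adjusted p = 0.570). A change of either thioredoxin as large as that of *Txnip* lay outside these intervals. Of the other *Txn2* probes, those tested gave -0.20 (SE 0.28) and -0.32 (SE 0.45). The latter is from a dim probe that was well above background on 7 of the 12 arrays, on only 1 of D and 1 of D + P. A further *Txn2* probe, with positive and significant signal on 6 of the 12 arrays, did not meet the filter and was not tested.

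Of the reductases that recharge them, the cytosolic *Txnrd1* differed by 0.03 on average (mm9, chromosome 10, 82360230 to 82360289, SE 0.12, 95% interval -0.23 to 0.29), with its 12 arrays between 9.80 and 10.31 and no separation of the groups. Its other probe gave 0.12 (SE 0.11). The mitochondrial *Txnrd2* (mm9, chromosome 16, 18479106 to 18479165) read 11.74, 11.90 and 11.78 in C, 12.07, 12.08 and 11.86 in C + P, 11.96, 11.77 and 11.83 in D, and 11.42, 11.64 and 11.85 in D + P. D and C overlapped (0.05, SE 0.15), and D + P lay below C + P on every array, by 0.37 on average (SE 0.15, limma adjusted p = 0.638). This order was not shared by its other tested probes, for which D + P exceeded C + P by 0.18 (SE 0.21) and 0.71 (SE 0.69). The former probe was well above background on all 12 arrays and differed by 0.37 in D against C (SE 0.21), with overlapping groups. The latter, a dim probe, was well above background on 8 of the 12 arrays and on only 1 of C + P. It differed by -0.44 in D against C (SE 0.69). The averaged difference was -0.16 (SE 0.11) for the brightest probe, against 0.28 (SE 0.15) and 0.135 (SE 0.48) for the others. A further *Txnrd2* probe had positive and significant signal on 0 arrays and was not tested.

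*Mlxip*, which encodes MondoA, did not pass in any contrast. Its brighter probe (mm9, chromosome 5, 123907398 to 123907457) read 7.23, 7.00 and 6.65 in C, 6.72, 6.82 and 6.51 in C + P, 5.87, 6.93 and 6.43 in D, and 7.20, 7.09 and 7.60 in D + P. The D + P arrays lay above all D and all C + P arrays, and D and C overlapped. The averaged difference was 0.03 (SE 0.19), made of -0.55 in D against C (SE 0.27) and 0.62 in D + P against C + P (SE 0.27). The interaction was 1.16 (SE 0.38, limma adjusted p = 0.652), and D + P against D gave 0.89 (SE 0.27, adjusted p = 0.231). The other probe (mm9, chromosome 5, 123896686 to 123896745) read 3.26, 3.97 and 3.00 in D and 5.31, 5.57 and 5.19 in D + P, but it was well above background on no D array, no C + P array and 2 D + P arrays. Its level in D is therefore only a bound, and no fold between D + P and D is given. D + P was at least 1.06-fold above C + P (measured means 5.36 and 4.15, limma adjusted p = 0.664).

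*Mlxipl*, which encodes ChREBP, had 3 tested probes that parted. The brightest (mm9, chromosome 5, 135614195 to 135614252) read 10.48, 11.36 and 11.36 in C, 10.26, 11.58 and 11.62 in C + P, 10.45, 10.90 and 10.65 in D, and 11.01, 11.60 and 11.08 in D + P. Its groups overlapped, with an averaged difference of -0.16 (SE 0.27), and replicate 1 was the lowest array of each of the 4 groups. With the replicate block the difference was the same with an SE of 0.18 (adjusted p = 0.760). The second (mm9, chromosome 5, 135613705 to 135613764) read 10.59, 10.72 and 10.49 in C, 10.81, 10.78 and 10.93 in C + P, 10.05, 9.78 and 10.18 in D, and 10.72, 10.20 and 10.47 in D + P. This probe was lower in diabetes on every array of both arms, by 0.49 log2 on average (difference -0.49, SE 0.12, limma adjusted p = 0.197). With pargyline it was higher on every array of both arms, by 0.24 for C + P against C (SE 0.17, limma adjusted p = 1) and by 0.46 for D + P against D (SE 0.17, adjusted p = 0.297). It passed in 1 alternative, limma with array weights, which passed 397 probes over the array. The third probe differed by -0.01 on average (SE 0.26), and the correlations between the 3 probes over the 12 arrays were 0.10 to 0.25.

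**Figure D3:**
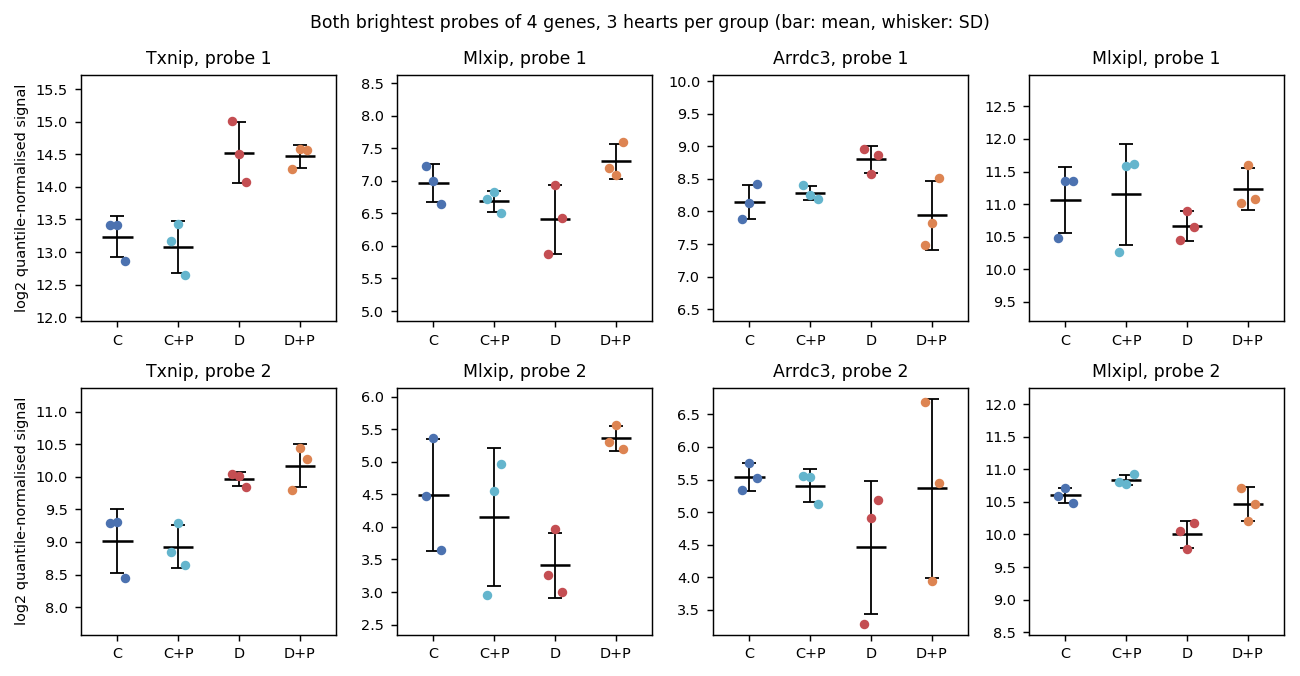
Log2 quantile-normalised signal of the brightest probe (top) and the next one (bottom) of *Txnip*, *Mlxip*, *Arrdc3* and *Mlxipl*, with 1 point per heart, the mean as a bar and the SD as a whisker (n = 3 per group); panels span the same number of log2 units. Both *Txnip* probes part diabetic from non-diabetic hearts, the brighter *Mlxip* probe has its highest mean in D + P (7.30) while the dimmer one was well above background on only 3 arrays, so its points in C + P and D are only bounds, and the brighter *Arrdc3* probe has its highest mean in D (8.80 against 8.15 in C). The dimmer *Arrdc3* probe was well above background on no D array, so its level there is only a bound.

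**Figure D4:**
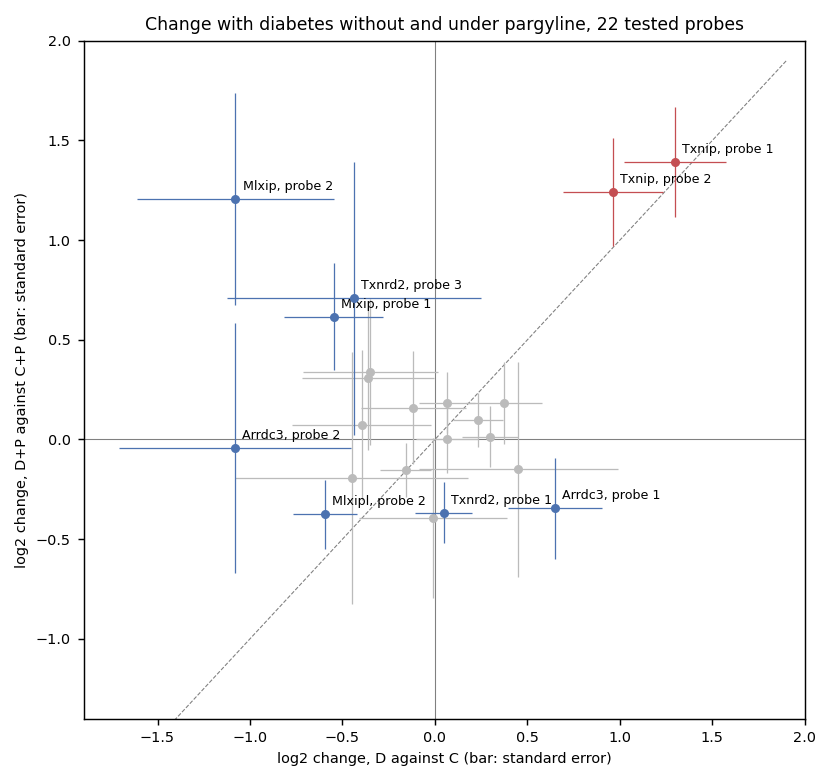
Log2 change in D against C (horizontal) and in D + P against C + P (vertical) for the 22 tested probes, with standard errors as bars and equal change as a dashed line; probes are numbered from the brightest. The *Txnip* probes lie near the line at 1.30 and 1.39 and at 0.96 and 1.24, while the brighter *Mlxip* probe lies left of 0 and above it and the brighter *Arrdc3* probe right of 0 and below it. The position of the dimmer *Mlxip* probe rests on signal that was well above background on only 3 arrays.

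Lists of 63 related genes were examined with the brightest tested probe of each, of which 60 genes were tested. By limma 0 of the 60 passed in any of the 6 contrasts. For diabetes averaged over pargyline 5 reached an unadjusted p under 0.05, beside 11.4% of all tested probes, with 3 higher and 2 lower in diabetes. Of the 60, the interaction gave 1 such gene (7.03% of all probes), D + P against D 5 (13.3%), C + P against C 2 (4.43%), D + P against C + P 1 (7.46%) and D against C 4 (10.8%). The median averaged change of the 60 was -0.01, the same as over all tested probes.

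Of 10 ligases and targets of TXNIP, 1 reached an unadjusted p under 0.05. This was *Slc2a4*, the insulin-responsive glucose transporter GLUT4 that TXNIP binds, with a difference of -0.39 (SE 0.11, limma adjusted p = 0.255). *Wwp1*, a ubiquitin ligase, differed by -0.29 (SE 0.19). Of 7 tested partners of MLX and MAX, *Mxi1*, a MAX-binding repressor, was 0.29 higher (SE 0.11, limma adjusted p = 0.382), and *Myc* was 0.50 higher (SE 0.42) with a signal well above background on only 3 arrays.

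Among 3 other arrestins tested, *Arrdc1*, an alpha-arrestin of vesicle budding, had an averaged difference of -0.20 (SE 0.13) and *Arrb2* of -0.16 (SE 0.16). The group means of *Arrdc1* were 8.04 ± 0.16 in C, 7.34 ± 0.09 in D, 7.82 ± 0.30 in C + P and 8.11 ± 0.22 in D + P (SD, n = 3). It was thus lowest in D, with -0.70 in D against C (SE 0.19, limma adjusted p = 0.311) and an interaction of 0.98 (SE 0.27, adjusted p = 0.566). *Arrdc5* did not meet the filter and was not tested.

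Of 13 genes whose products draw electrons from thioredoxin or act with it, 3 had an unadjusted p under 0.05, and they are named after their values were seen. The peroxiredoxin *Prdx4* was 0.34 higher (SE 0.10, limma adjusted p = 0.256) and the ribonucleotide reductase subunit *Rrm2b* 0.37 higher (limma adjusted p = 0.335), while *Prdx6* differed by -0.32 (limma adjusted p = 0.377). The largest differences were those of *Rrm2*, another subunit of that enzyme, at -0.40 (SE 0.24), and of the sulfiredoxin *Srxn1*, at -0.38 (SE 0.18). In 10 proteins of the thioredoxin fold the largest differences were 0.25 (*Txndc12*, SE 0.12) and -0.17 (*Txnl1*, SE 0.12). In 10 genes of the glutathione system they were -0.29 (*Gpx4*, SE 0.16) and -0.15 (*Glrx3*, SE 0.15). Among 7 tested genes of the NRF2 antioxidant response they were 0.30 (*Nfe2l2*, which encodes NRF2, SE 0.19) and 0.24 (*Gstm1*, SE 0.17). The medians of the 7 lists lay between -0.16 and 0.03.

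**Figure D5:**
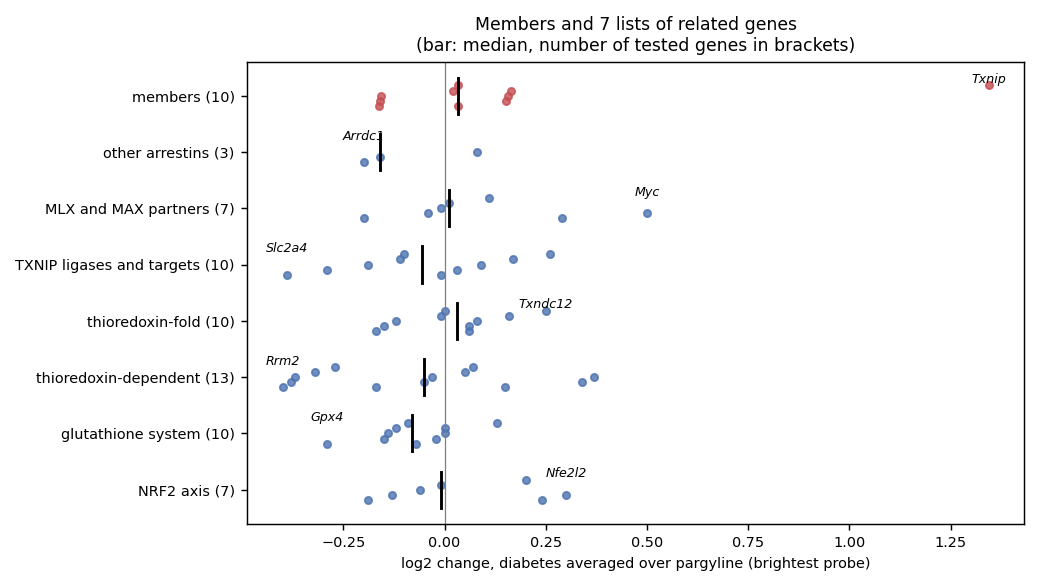
Log2 change with diabetes averaged over pargyline for the brightest tested probe of the 10 genes (red) and of the genes of 7 related lists (blue), with 1 point per gene, the median as a bar and the gene with the largest difference named. *Txnip* lies at 1.35, and the genes of the lists lie between -0.40 (*Rrm2*) and 0.50 (*Myc*). The signal of *Myc* was well above background on only 3 arrays.

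Over the 12 arrays the genes most like the brighter *Txnip* probe were *Rbm3* (Pearson's r = 0.961, Spearman's rho = 0.874), *Cox16* (0.937 and 0.937) and *Pdk4* (0.936 and 0.902). Those most unlike it were *Cryba4* (-0.953 and -0.972), *Man2a2* (-0.946 and -0.853) and *Narf* (-0.934 and -0.916). These are descriptions over 12 hearts that share the split by diabetes. With the group means removed, r was 0.722, 0.821 and 0.713 for *Rbm3*, *Cox16* and *Pdk4*, and -0.805, -0.890 and -0.904 for *Cryba4*, *Man2a2* and *Narf*. *Rbm3* and *Cryba4* also passed in the averaged contrast, at 0.75 and -1.32 (limma adjusted p = 0.0423 for both). Within the 10 genes the values were 0.69 for *Txn1*, -0.64 for *Txn2* and between -0.29 and 0.41 for the other 7. With the group means removed they were 0.56 for *Txn1*, 0 for *Txn2*, 0.72 for *Txnrd1* (0.38 before), 0.60 for *Txnrd2* (-0.29 before) and 0.48 for *Arrdc2* (0.23 before), and between -0.22 and 0.09 for the other 4.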

How the data were processed

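From each heart the authors labelled 200 ng of total RNA with Cy3 and hybridised it to a single-channel Agilent array. The deposited scanner files hold spot intensity on a linear scale, background-subtracted by Feature Extraction, with flags of 0 or 1 for signal and outliers. The grid placement field of the file headers gives version 12.0.0.7, whereas the authors name another version of Feature Extraction. A deposited table holds intensity that the authors quantile normalised, and was an alternative here.

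Samples were placed in groups by their titles. Intensities were log2 transformed and quantile normalised over the 12 arrays, outlier spots left out and repeated spots averaged. Testing required positive and significant signal on 50% or more of the arrays in every group, which 30859 of 56605 probes met. The fit used limma 3.58.1 (R 4.3.3, with the data.table package, version 1.17.8) with 1 mean per group over all arrays, 8 residual and 2.62 prior degrees of freedom, and two-sided tests. P-values were adjusted by Benjamini-Hochberg over all tested probes, with a threshold of 0.05. The study used t-tests, which were an alternative. For a group whose arrays all lacked signal well above background, a fold is given as a lower bound, against the higher of the signal of the probe and the lowest signal well above background per array. Precision is limited by the 3 mice per group. Probe coordinates are those of the files (mm9), and the position of a probe within its transcript is not given in the sources used here. RefSeq promoters (GRCm38.p6) were found for 10 of 10 genes.

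All members are described, with the brightest probe of each in most detail. Of each list, genes past the threshold in any contrast were to be named, and otherwise the 2 with the largest averaged difference, and for likeness to *Txnip* the 3 highest and the 3 lowest correlations. Members and lists were chosen with earlier results of these data known. Alternatives were 75th percentile scaling, normexp (offset 50), the deposited table, values without positive and significant signal set to missing, other filters, array weights, an intensity trend, the fit of compared groups only, the t-test, slide, slide column and replicate number as blocks, the mean of all probes of a gene, and leaving out each array. The fit was tested on simulated data. Figures were made in matplotlib 3.10.9 (Python 3.11.15, numpy 2.4.6, pandas 2.3.3).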

Additional observations from a re-analysis of the deposited data

How the results depend on the processing

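By limma, 0 member probes passed under any alternative in the 5 contrasts other than diabetes averaged over pargyline, and 0 by the methods' t-test in those of 2 groups with Benjamini-Hochberg or Bonferroni adjustment. In the averaged contrast the count of 1, *Txnip*, was 2 under normexp, under the well above background filter and with an intensity trend, each time both *Txnip* probes. It was 3 with array weights, when the second *Mlxipl* probe joined them. It was 0 without a filter on dim probes (*Txnip* change 1.35, adjusted p 0.0592), with the column on the slide as a block (1.27, 0.0939) and with the replicate block (1.35, 0.0681), and 0 to 2 without each array in turn. The count over all probes was 33, and 4 with the replicate block, 3 with the column block, 16 without a filter, 397 with array weights, 78 under the well above background filter, 73 with an intensity trend and 3 to 116 without each array in turn. By the correlations between arrays, the replicate numbers did not pair them (4 of 18 same-number correlations above 0.1, and 5 of 12 arrays most correlated with their own number). Replicate 1 still had the highest median coefficient of variation of repeated spots in each group (10.5% in C, 16.6% in C + P, 23.4% in D, 15.4% in D + P). Whether replicates of 1 number share a batch was not tested. The *Txnip* change was 1.22 to 1.46 without each array.

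Differences that had not passed, between -0.16 and 0.15 in the fit described above, changed sign. These were *Txn2* under normexp (0.04), *Arrdc2* with array weights (-0.09), with the column block (-0.006) and over the mean of its probes (-0.004), *Mlxipl* with the column block (0.003), and over the mean of their probes *Arrdc3* (-0.20) and *Txnrd2* (0.084). Without each array *Arrdc2* ranged from -0.10 to 0.17, *Mlxip* from -0.10 to 0.17 and *Txnrd1* from -0.022 to 0.081. Where the mean of the probes changed sign, the probes of the gene differed in sign. Their averaged differences were 0.15 and -0.56 for *Arrdc3*, -0.16, 0.28 and 0.135 for *Txnrd2*, and 0.02 and -0.03 for *Arrdc2*. The cause of the other changes of sign was not tested.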
